A study of Mus musculus with 18 samples.

Results

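Mice that had received urban particulate matter (UPM) through the nose for 20 weeks were compared with mice that had received it for 12 and 16 weeks. The comparison used 6 of the 18 libraries of the series: 2 libraries of 20 weeks (1 from hippocampus, 1 from cortex) against 4 libraries of 12 and 16 weeks (1 per tissue and time), with tissue as a covariate. They were chosen by tissue and exposure time, and all 6 came from files with the same style of column name. All animals were male C57BL/6 mice without a transgene, 7 weeks old at the first dose, and all 6 groups received UPM (the certified dust SRM 1648a suspended in PBS) 2 times per week; none of the 6 was a vehicle group. If dosing began at that age, the mice were 19, 23 and 27 weeks old after 12, 16 and 20 weeks, so exposure time, age and total dose cannot be told apart. The animals of each group contributed to 1 RNA pool per tissue, so each value below has no standard deviation, and whether both tissues came from the same animals is not given in the sources used here. Libraries of both tissues and of both earlier times stand in for replicates, and the p-values reflect how far these pools differ among themselves, which is not a spread between animals. For context, the control libraries (vehicle, with no time given) and the 8-week libraries are quoted beside the 6, without entering a test.

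The group of genes that separated the 20-week libraries most evenly in both tissues was that of myelin. Myelin is the multilayered membrane that oligodendrocytes wrap around axons, and it speeds conduction and supports the axon. Its compact part holds the proteins encoded by Mbp and Mobp, its innermost and outermost surfaces carry Mag and Mog, and its tight junctions are built from Cldn11. The factors Sox10 and Myrf switch on many of these genes as precursors mature, and precursors are marked by Pdgfra and Cspg4. In hippocampus and cortex, much of this RNA lies in fibre tracts beneath and between the neuron layers, so a sample's level also reflects how much white matter it holds.

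The start regions of 4 of these genes are shown because their transcripts fell together. Mog, Mag and Ermn passed the test over both tissues, and Mobp passed it in hippocampus and has the most matches to one of the motifs. The sequences are the 250 bases before the RefSeq start (GRCm38.p6, written on the gene's strand): Mog at chr17:37023399-37023648 on the minus strand, Mag at chr7:30914864-30915113 on the minus strand, Ermn at chr2:58052865-58053114 on the minus strand and Mobp at chr9:120149492-120149741 on the plus strand. Capitals mark matches on either strand to ACAAAG, the core that Sox factors bind, or to CTGGNAC, the core reported for Myrf.
Mog: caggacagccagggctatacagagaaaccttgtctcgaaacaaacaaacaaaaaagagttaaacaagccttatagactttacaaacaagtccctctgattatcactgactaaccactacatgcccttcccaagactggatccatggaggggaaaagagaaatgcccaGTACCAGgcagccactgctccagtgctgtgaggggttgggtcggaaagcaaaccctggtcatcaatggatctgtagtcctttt
Mag: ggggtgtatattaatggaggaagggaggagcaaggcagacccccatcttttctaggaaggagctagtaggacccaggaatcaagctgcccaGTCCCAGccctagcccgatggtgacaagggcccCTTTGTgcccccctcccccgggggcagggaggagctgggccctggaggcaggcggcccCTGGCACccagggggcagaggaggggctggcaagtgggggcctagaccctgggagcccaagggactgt
Ermn: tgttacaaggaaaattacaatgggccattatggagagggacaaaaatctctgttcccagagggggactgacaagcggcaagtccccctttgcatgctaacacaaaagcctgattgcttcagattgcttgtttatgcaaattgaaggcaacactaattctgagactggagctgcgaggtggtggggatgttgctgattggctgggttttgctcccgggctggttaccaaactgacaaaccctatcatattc
Mobp: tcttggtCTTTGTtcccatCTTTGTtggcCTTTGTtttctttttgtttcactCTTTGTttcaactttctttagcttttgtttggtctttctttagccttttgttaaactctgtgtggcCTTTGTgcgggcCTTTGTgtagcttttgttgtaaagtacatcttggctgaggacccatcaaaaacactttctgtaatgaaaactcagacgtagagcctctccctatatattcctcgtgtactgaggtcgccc
The Mobp window holds 6 matches to ACAAAG, the Mag window holds 1 match to ACAAAG and 2 to CTGGNAC, the Mog window holds 1 match to CTGGNAC, and the Ermn window holds neither. RefSeq windows were matched for 14 of the 22 myelin genes. Of these, 6 hold ACAAAG and 4 hold CTGGNAC, beside 16.5% and 16% of 27025 promoters of the same length. These are matches of letters and not measured binding sites.

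The 6 libraries held 7314293 to 8649319 counts, so 1 count equals 0.116 to 0.137 CPM (the count scaled to a common library size). Levels are given as CPM scaled with TMM factors over the 10 libraries of control, 8, 12, 16 and 20 weeks. Markers followed the tissue labels: the 23 hippocampal neuron markers summed to 1131 to 1544 CPM in the 3 hippocampus libraries and 766 to 818 CPM in the 3 cortex libraries, and the 23 cortical neuron markers to 1880 to 3013 CPM against 4749 to 4905 CPM. Among the 5 hippocampus libraries quoted here, cortical markers summed highest at 16 weeks (3013 CPM) and next highest at 20 weeks (2591 CPM). The sum was 1725 CPM in control, 1603 CPM at 8 weeks and 1880 CPM at 12 weeks. The 20-week library also had the lowest hippocampal marker sum of these 5 (1131 CPM, against 1535 CPM in control and 1304 CPM at 8 weeks). The 16-week library held transcripts made mainly by liver, with Alb (albumin) at 325 CPM against 13.5 CPM at 12 weeks and 10.1 CPM at 20 weeks. Of the 26 genes called below, 24 also passed without this library.

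Over both tissues, 26 of 14097 genes tested differed between 20 weeks and the earlier times (edgeR quasi-likelihood test, adjusted p below 0.05; 0.184% of genes). Of these, 13 were lower at 20 weeks (0.0922%) and 13 were higher (0.0922%). At an unadjusted p below 0.05 there were 1381 genes. In all 26, the 20-week library lay outside the range of 12 and 16 weeks on the same side in each tissue, which was also true of 14.5% of all genes on the lower side and 14.9% on the higher side. The lower genes were 5 of the myelin list (Mog, Mag, Ermn, Mbp and Trf) together with Cdr1, Scn4b, Adora2a, Foxp1, Prr18, Tmem63a, Atp2b2 and Slc24a2. The higher genes were Col1a1, Trhr, Tmem132e, Nr2f2, Fign, Pisd-ps1, Itga4, Plcxd3, Sfi1, Bhlhe22, Orc4, Cadm1 and Gda. The calls depended on single libraries: of the 26, 26 still passed without the hippocampus 12-week library, 24 without hippocampus 16 weeks, 15 without cortex 20 weeks, 5 without cortex 12 weeks, 3 without hippocampus 20 weeks and 1 (Cdr1) without cortex 16 weeks. All 26 kept their direction in each of these fits.

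All 22 genes of the myelin list were measured, and in all 22 the 20-week library was below both the 12- and the 16-week library in hippocampus and again in cortex (100% of the list, against 14.5% of all genes). Their median difference over both tissues was -0.86 on the log2 scale, while the median of all genes tested was 0.00. Summed over the list, hippocampus held 6610 CPM at 12 weeks, 6036 CPM at 16 weeks and 2764 CPM at 20 weeks, and the control and 8-week libraries held 4381 and 9090 CPM. Cortex held 5528, 5377 and 3955 CPM at 12, 16 and 20 weeks, and 5602 and 7560 CPM in control and at 8 weeks. The 20-week sum was thus 43.7% of the mean of 12 and 16 weeks in hippocampus and 72.5% in cortex, and it was the lowest of the 5 libraries of each tissue. From pooled tissue, fewer oligodendrocytes and less of this RNA per cell cannot be told apart. Markers of neighbouring tissue also moved in the 20-week libraries: the striatal sum was 24% of the mean of 12 and 16 weeks in cortex and 156% in hippocampus. In hippocampus the hypothalamus sum was 214% and that of mural cells and fibroblasts 173%. Hap1 made up most of the former sum and Ptgds most of the latter. Hippocampal neuron markers summed to 81.4% and cortical neuron markers to 106% in hippocampus. The part of a difference in dissected tissue in the myelin result was not tested. Of the 44 gene lists examined, the myelin list was the only one in which every tested member lay on one side of both earlier times in both tissues. The lists were chosen with earlier results of these data known, and genes measured in the same pools are not separate observations.

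**Figure D1:**
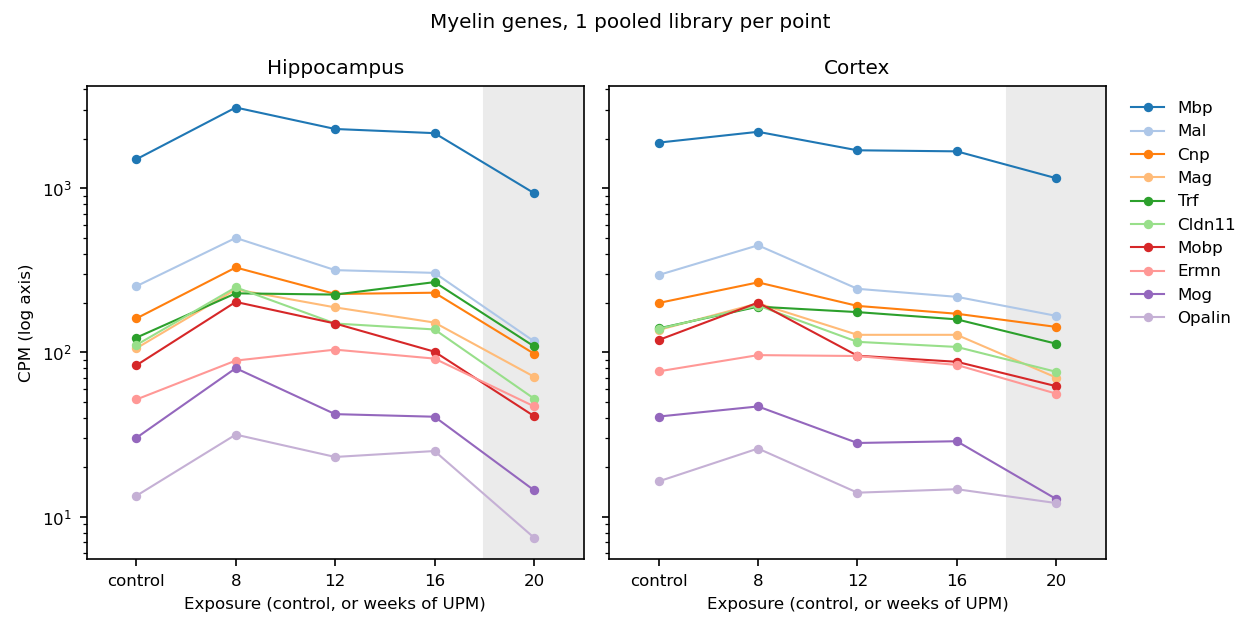
Levels of 10 myelin genes in each pooled library (CPM, log axis) for hippocampus (left) and cortex (right), from control through 8, 12, 16 and 20 weeks of UPM; each point is 1 library, lines join libraries of a gene, and grey shading marks 20 weeks. Every line drops from 16 to 20 weeks in both panels, as for Mog from 40.6 to 14.5 CPM in hippocampus and from 28.8 to 12.8 CPM in cortex, and the levels at 8 weeks are above those of control.

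Among the surface proteins, Mog (myelin oligodendrocyte glycoprotein) was at 42.1 CPM at 12 weeks, 40.6 CPM at 16 weeks and 14.5 CPM at 20 weeks in hippocampus. In cortex Mog was at 28.1, 28.8 and 12.8 CPM. The 2 earlier libraries of each tissue were close to each other and the 20-week library was below both, and Mog fell by 1.34 on the log2 scale over both tissues (SE 0.14, edgeR adjusted p = 0.00645). Mag (myelin-associated glycoprotein, which faces the axon) was at 188, 152 and 71.2 CPM in hippocampus and at 128, 128 and 70.3 CPM in cortex at 12, 16 and 20 weeks. Mag fell by 1.06 on the log2 scale (SE 0.12, edgeR adjusted p = 0.0109), so that both 20-week libraries held about the same level. Ermn (ermin, a cytoskeletal protein of late oligodendrocytes) was at 104, 91.7 and 47.0 CPM in hippocampus and at 95.1, 83.9 and 56.1 CPM in cortex, and fell by 0.86 (SE 0.12, edgeR adjusted p = 0.0319). Without the hippocampus 20-week library, or without the cortex 16-week library, none of the 22 genes passed over both tissues, and 2 passed without cortex 12 weeks. Without cortex 20 weeks 16 passed, and 11 passed without hippocampus 12 weeks.

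Of the compact myelin proteins, Mbp (myelin basic protein) was at 2293, 2163 and 934 CPM in hippocampus and at 1701, 1676 and 1150 CPM in cortex at 12, 16 and 20 weeks. Mbp fell by 0.89 on the log2 scale over both tissues (SE 0.13, edgeR adjusted p = 0.0407), and by 0.56 without the hippocampus 20-week library. Trf (transferrin, the iron carrier that oligodendrocytes make) was at 225, 268 and 109 CPM in hippocampus and 176, 159 and 113 CPM in cortex, and fell by 0.86 over both tissues (SE 0.14, edgeR adjusted p = 0.0471), or by 0.57 without hippocampus 20 weeks. Of the remaining members, Mobp, Cldn11, Mal, Cnp, Fa2h, Opalin and the others had differences of -0.30 (Car2, carbonic anhydrase) to -1.05 (Mobp) over both tissues and did not pass. The smallest differences were those of Car2, Apod (-0.42), Qdpr (-0.48) and Cryab (-0.50).

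The drop was larger in hippocampus than in cortex for each of the 22 genes, with medians of -1.24 and -0.45. In hippocampus alone 16 of the 22 passed the test as lower (0.291% of all genes did), among them Mbp (-1.25), Mal (-1.41), Cldn11 (-1.46), Cnp (-1.22) and Opalin (-1.69). In cortex alone none of the 22 passed (0.135% of all genes were lower), and Mog came closest (-1.15, SE 0.19, adjusted p = 0.0639). The test of the difference between the tissues passed for none of the 22, the smallest adjusted p being 0.115 (Mal). The hippocampal count stood at 14 to 22 when any one of the 4 earlier libraries was left out. Not in the list, but known from myelinating cells and chosen here after their values were seen, Tmem88b (-1.56), Ppp1r14a (-1.39), Gpr37 (-1.21), Prr18 (-1.14), Cntn2, Pllp (-0.98), Plekhb1 (-0.98) and Tmem63a (-0.93) also fell in hippocampus.

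Genes of earlier oligodendrocyte stages did not all move in 1 direction: over both tissues 11 had a positive and 7 a negative difference. Of 18 genes of precursors and newly formed oligodendrocytes, none passed over both tissues, the median difference was 0.10, and 5 lay below and 5 above both earlier times in both tissues (27.8% on each side, against 14.5% and 14.9% of all genes). Sox10 and Olig2, transcription factors kept through the whole lineage, had differences of -0.53 and -0.51 (adjusted p = 0.104 and 0.178). Enpp6, also in this list, had a larger difference of -0.76 and did not pass (edgeR adjusted p = 0.351). Bcas1, a marker of newly myelinating cells, was at 196, 197 and 93.1 CPM in hippocampus and fell there (edgeR adjusted p = 0.00459). Pdgfra, the growth factor receptor of precursors, was at 27.2, 19.5 and 33.4 CPM in hippocampus and at 21.6, 17.0 and 24.1 CPM in cortex at 12, 16 and 20 weeks, highest at 20 weeks in each tissue but not past the test (0.42, adjusted p = 0.419). Myrf, the factor of the mature stage, was at 33.9, 27.3 and 12.0 CPM in hippocampus and fell there by 1.34 (SE 0.22, adjusted p = 0.0255).

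**Figure D2:**
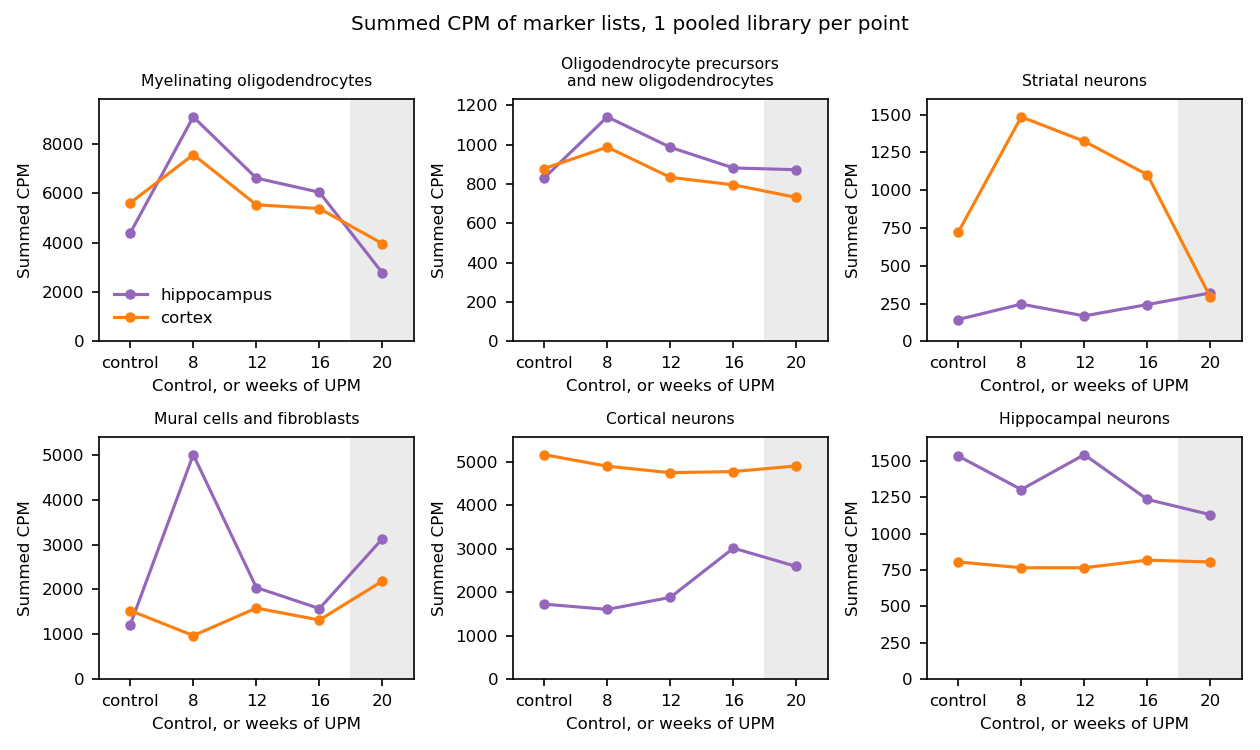
Summed CPM of 6 marker lists in each pooled library, with hippocampus in purple and cortex in orange, from control through 8, 12, 16 and 20 weeks of UPM; each point is 1 library, each vertical axis starts at 0, and grey shading marks 20 weeks. The myelin sum is lowest at 20 weeks in both tissues (2764 and 3955 CPM), the precursor sum at 20 weeks is 873 CPM in hippocampus and 732 CPM in cortex, the striatal sum of cortex drops from 1102 to 291 CPM between 16 and 20 weeks, and the sum of mural cells and fibroblasts is higher at 20 weeks (3133 and 2188 CPM) than at 12 and 16 weeks, with 5007 CPM in hippocampus at 8 weeks.

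In cortex, the 20-week library differed most in genes of the striatum, the nucleus that lies beneath the cortex. In cortex alone 19 genes passed, all lower (0.135%), and none was higher (0%; 985 genes had an unadjusted p below 0.05). DESeq2, library totals alone and no filter on low counts each called 1 gene higher. The count of 19 and its direction depended on which of the 4 earlier libraries were kept. Without hippocampus 12 weeks or hippocampus 16 weeks, where the spread comes from cortex alone, many genes were called in both directions. All 13 striatal neuron markers tested lay below both earlier cortex libraries, as did 5018 of all 14097 genes. Of the 13, 8 passed the test as lower in cortex: Syndig1l, Adora2a, Rxrg, Penk, Rgs9, Ppp1r1b, Pde10a and Drd1. Syndig1l was at 66.6, 57.9 and 6.60 CPM in cortex at 12, 16 and 20 weeks, and fell by 3.23 on the log2 scale (SE 0.22, edgeR adjusted p = 0.000519). Penk (the precursor of enkephalins) was at 203, 149 and 35.7 CPM, and Drd1 (the D1 dopamine receptor) at 205, 166 and 58.8 CPM. Their falls were 2.30 (SE 0.21) and 1.66 (SE 0.18), and each of these 3 genes passed in all 11 alternative fits of the cortex comparison. Summed over the list, cortex held 1323, 1102 and 291 CPM at 12, 16 and 20 weeks, and 721 and 1485 CPM in control and at 8 weeks, so that the 20-week library was also below control. The share of striatum in each cortex sample was not measured, and its part in these differences and in those of Scn4b and Adora2a was not tested. Cortical neuron markers stood at 4749, 4775 and 4905 CPM in the same libraries.

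The other 11 genes that passed as lower in cortex were Lrrc10b, Six3, Scn4b, Nexn, Rasgrp2, Rasd2, Pde1b, Cdr1, Pcp4l1, Adcy5 and Pcp4. Many of these are also known from striatal neurons, such as Rasd2 (the small GTPase Rhes), Adcy5 (an adenylyl cyclase) and Pde1b (a phosphodiesterase); they were named after their values were seen. In hippocampus 4 of the 13 striatal markers passed the test, all higher (Penk, Drd1, Tac1 and Rxrg; 0.291% of all genes were higher there), and the list summed to 168, 243 and 320 CPM at 12, 16 and 20 weeks. Penk in hippocampus was at 21.9, 26.6 and 60.6 CPM. The difference between the tissues passed the test for 17 genes (0.121%), of which 7 are in the striatal list: Syndig1l, Penk, Drd1, Rxrg, Tac1, Pde10a and Rgs9. For Penk the hippocampal minus the cortical difference was 3.62 (SE 0.29, edgeR adjusted p = 0.0012).

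**Figure D3:**
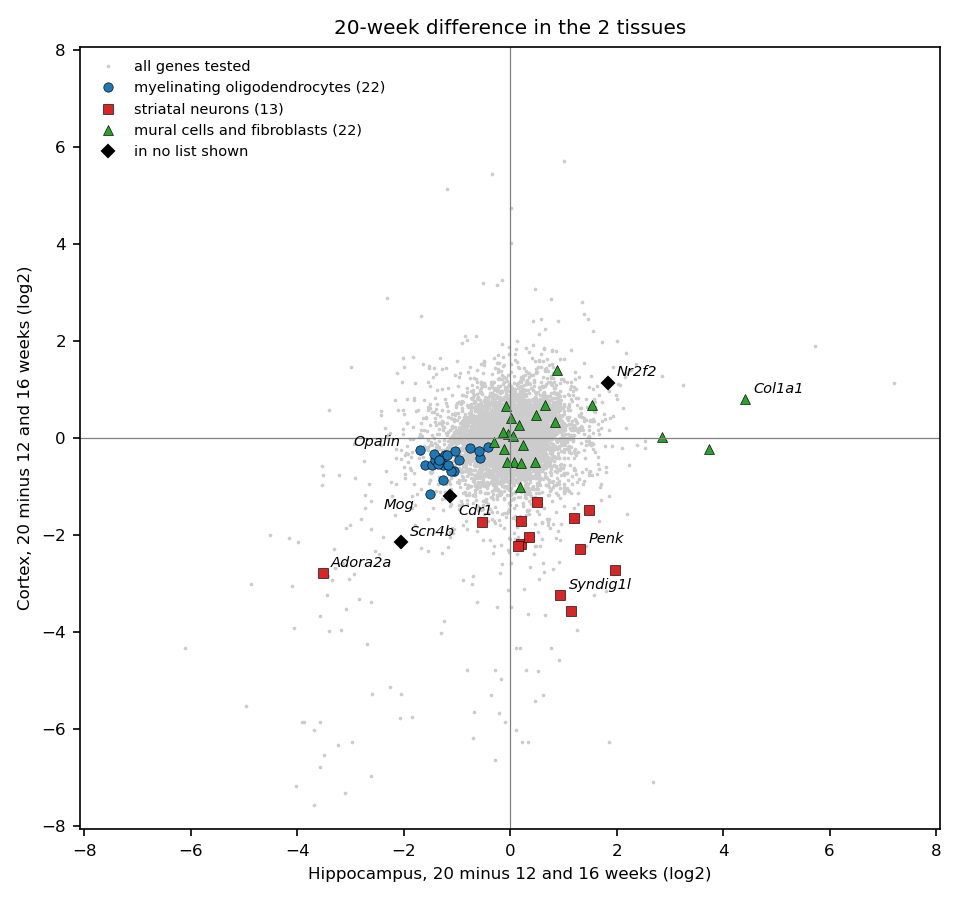
Log2 difference of 20 weeks from 12 and 16 weeks in hippocampus (horizontal axis) and in cortex (vertical axis) for all genes tested (grey points) and for 3 marker lists; black diamonds mark Cdr1, Scn4b and Nr2f2, which are in none of these lists. The 22 myelin genes lie below 0 on both axes and further from 0 on the hippocampal one, striatal markers lie below 0 in cortex with most of them above 0 in hippocampus, and 3 collagen genes lie far to the right.

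Cdr1 and Scn4b passed as lower in each tissue tested alone, the only 2 genes to do so. Cdr1 (X:61184005-61185558, minus strand, a locus known for its circular transcript) had the smallest p of all genes. It was at 134, 147 and 64.0 CPM in hippocampus and at 174, 172 and 74.9 CPM in cortex at 12, 16 and 20 weeks, so that the 20-week library held less than the 2 earlier ones in each tissue by similar amounts. Its fall was 1.17 on the log2 scale (SE 0.09, edgeR adjusted p = 0.00103), and Cdr1 passed in all 19 alternative fits. Libraries primed with oligo-dT do not show circular RNA as such, and the locus lies inside C230004F18Rik on the opposite strand, so reads of the pair could not be told apart without a known strand setting. Scn4b (a beta subunit of sodium channels, abundant in striatal and fast-firing neurons) was at 7.35, 10 and 2.10 CPM in hippocampus and at 50.6, 53.4 and 11.7 CPM in cortex, a fall of 2.12 (SE 0.18, adjusted p = 0.00163). Scn4b passed in 18 of the 19 alternative fits and missed without cortex 16 weeks (adjusted p = 0.0549, the highest of the 19). Adora2a (an adenosine receptor of striatal neurons) was at 38.1, 27.1 and 4.67 CPM in cortex, while in hippocampus it rested on 10, 16 and 1 counts and did not pass alone (adjusted p = 0.17). Its hippocampal ratio of earlier over 20 weeks was 13 with an exact 95% interval of 2.13 to 533 that covers counting error only.

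The other lower genes that passed over both tissues had smaller differences. Foxp1 (a transcription factor of cortical and striatal projection neurons) was at 381, 368 and 257 CPM in hippocampus and at 693, 739 and 458 CPM in cortex, a fall of 0.59 (SE 0.08, adjusted p = 0.0223). Atp2b2 (a plasma membrane calcium pump) and Slc24a2 (a sodium, potassium and calcium exchanger) fell by 0.57 and 0.53. Among 26 potassium, sodium and calcium channel genes, only Scn4b passed; Scn1a and Kcna1 had differences of -0.49 and -0.47 (adjusted p = 0.0713 and 0.0723), and 9 of the 26 were below both earlier times in both tissues (34.6%, against 14.5% of all genes). In hippocampus alone Pvalb (parvalbumin, of fast-spiking interneurons) was at 49.2, 49.5 and 20.4 CPM and fell by 1.27 (SE 0.16, adjusted p = 0.00604). Syt2 (a synaptotagmin of fast synapses) was at 11.7, 19.2 and 3.27 CPM there and fell by 2.24 (SE 0.37, adjusted p = 0.0255). Of 24 genes of interneurons and neuropeptides, only Pvalb passed as lower in hippocampus, and Reln, Tac1 and Penk passed as higher. Of all genes, 0.291% passed there on each side. In this list 7 lay below and 12 above both earlier hippocampus libraries, as did 4837 and 4723 of all 14097 genes.

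The genes higher at 20 weeks in both tissues did not belong to one pathway by the lists used. Nr2f2 (COUP-TFII, a nuclear receptor of interneurons and of ventral hippocampal and amygdalar neurons) was at 99.8, 74.1 and 312 CPM in hippocampus and at 111, 58.5 and 187 CPM in cortex at 12, 16 and 20 weeks. Nr2f2 rose by 1.51 on the log2 scale (SE 0.22, edgeR adjusted p = 0.0374), and its control libraries stood at 265 and 77.9 CPM, so that hippocampus at 20 weeks was near its control. Without the cortex 16-week or the hippocampus 20-week library Nr2f2 did not pass (adjusted p = 0.194 and 0.403, where the 19 alternatives gave 6.52e-11 to 0.47). Plcxd3 (a phospholipase C domain protein) was at 25.5, 29.6 and 59.3 CPM in hippocampus and at 30.4, 29.1 and 47.2 CPM in cortex, with controls of 37.5 and 43.3 CPM. Bhlhe22 (a neuronal transcription factor), Cadm1 (a synaptic adhesion molecule) and Gda (guanine deaminase) rose by 0.72, 0.53 and 0.51. Itga4 (an integrin alpha subunit) was at 29.9, 23.4 and 45.4 CPM in hippocampus and 15.3, 13.9 and 31.8 CPM in cortex, and rose by 0.94 (SE 0.14, adjusted p = 0.0407). None of these 6 genes passed without the cortex 16-week library.

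Trhr (the receptor for thyrotropin-releasing hormone) was at 3.94, 2.53 and 13.1 CPM in hippocampus and at 1.77, 0.831 and 5.22 CPM in cortex, and rose by 2.01 (SE 0.32, edgeR adjusted p = 0.0471). Its cortical values rest on 14, 7 and 38 counts, a ratio of 4.19 with an exact 95% interval of 2.4 to 7.52 for counting error. Trh, the hormone itself, had 2, 1 and 84 counts in hippocampus at 12, 16 and 20 weeks, a ratio of 56.0 with an exact 95% interval of 18.5 to 277 for counting error. Beside Trh, Hap1 rose in hippocampus by 1.30 (SE 0.21, adjusted p = 0.0219), from 70.9 and 47.1 to 145 CPM. These are 2 of the 6 hypothalamus markers tested (0.291% of all genes were higher in hippocampus). Only 6 of the 16 listed markers passed the filter on low counts, and Trh reached more than 2 counts in hippocampus only at 20 weeks among these 3 libraries. The list summed to 118, 86.7 and 219 CPM in hippocampus and to 92.2, 78.1 and 94.4 CPM in cortex, and the part of neighbouring tissue in the sample was not tested. Tmem132e was at 3.68, 4.43 and 16.5 CPM in hippocampus and at 4.54, 4.39 and 9.62 CPM in cortex, and Fign (fidgetin, which severs microtubules) at 10.1, 8.61 and 21.2 CPM and at 7.57, 7.95 and 15.1 CPM.

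**Figure D4:**
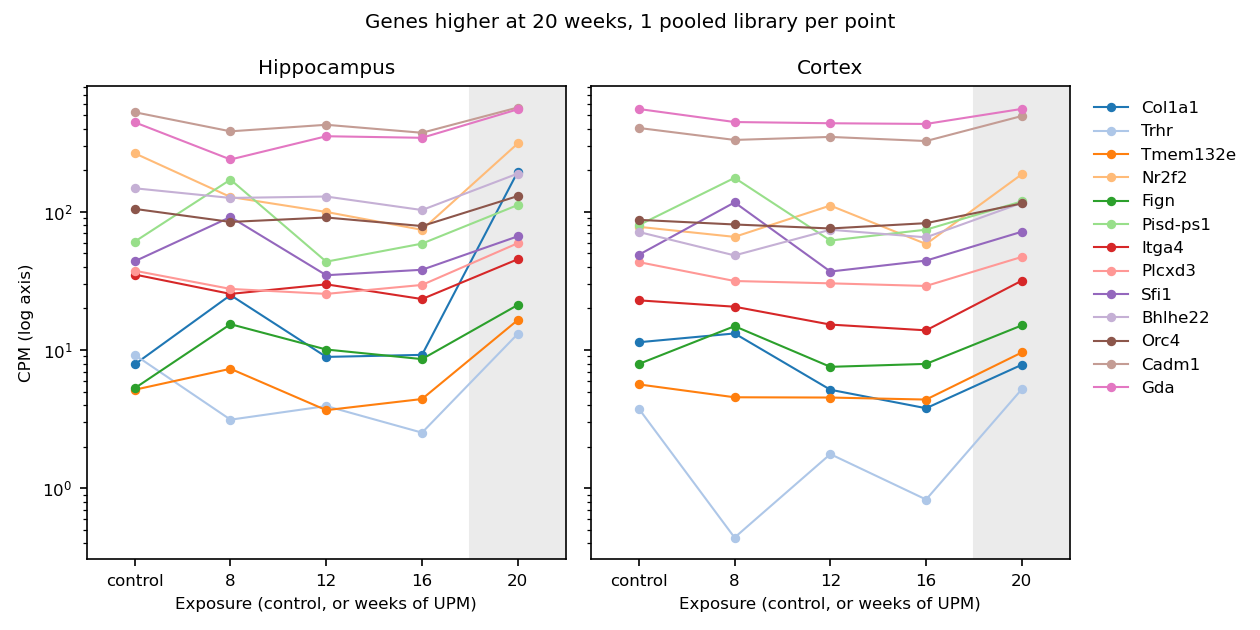
Levels of the 13 genes that were higher at 20 weeks over both tissues (CPM, log axis) in hippocampus (left) and cortex (right), from control through 8, 12, 16 and 20 weeks of UPM; each point is 1 pooled library and grey shading marks 20 weeks. Each line rises from 16 to 20 weeks, Col1a1 in hippocampus from 9.24 to 195 CPM; Sfi1 and Pisd-ps1 are higher at 8 weeks than at 20 weeks in both tissues.

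Sfi1 and its neighbour Pisd-ps1 (11:3131850-3193463 and 11:3125904-3131004) rose by 0.84 and 0.97 but are uncertain. Sfi1 encodes a centrosomal protein, and this part of chromosome 11 holds near-identical copies between which reads can be split. Both genes were higher still at 8 weeks: Sfi1 was at 91.7 CPM at 8 weeks in hippocampus and 117 CPM in cortex, against 66.5 and 71.8 CPM at 20 weeks. With 8 weeks added to the earlier times, their differences were 0.20 and 0.25 and neither passed. Orc4, a subunit of the origin recognition complex, was at 91.0, 78.9 and 130 CPM in hippocampus and 75.8, 82.8 and 115 CPM in cortex. Orc4 overlaps Acvr2a and Mbd5 on the opposite strand.

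Collagen genes were raised in the hippocampus library of 20 weeks. Of the 82 genes that passed in hippocampus alone, 41 were higher (0.291%), 41 lower (0.291%), and 1170 had an unadjusted p below 0.05; the count of 82 became 73 to 691 when any one of the 4 earlier libraries was left out, the highest without hippocampus 16 weeks. Col1a1 (the alpha-1 chain of type I collagen) was at 8.93, 9.24 and 195 CPM in hippocampus and at 5.17, 3.80 and 7.84 CPM in cortex at 12, 16 and 20 weeks. Its rise was 4.42 in hippocampus (SE 0.17, edgeR adjusted p = 1.82e-06), while in cortex the difference was 0.81 (SE 0.25, adjusted p = 0.574); these differences differed from each other by 3.61 (adjusted p = 0.00147). Over both tissues its difference was 0.80 without the hippocampus 20-week library. Col1a2 was at 49.2, 33.5 and 299 CPM and Col3a1 at 2.36, 2.15 and 30.1 CPM in hippocampus, while in cortex Col1a2 was at 29.8, 31.2 and 30.9 CPM and Col3a1 at 1.39, 1.19 and 1.10 CPM. These were 3 of 22 tested genes of mural cells and fibroblasts. Of the 22, 12 lay above both earlier hippocampus libraries and 3 below, as did 4723 and 4837 of all 14097 genes. Gpx3 (the extracellular glutathione peroxidase) rose in hippocampus by 2.52, from 6.30 and 6.84 to 37.8 CPM. Choroid plexus markers summed to 2799, 6422 and 4415 CPM in the same 3 libraries, so the 20-week library lay between the earlier ones. The whole list of mural cells and fibroblasts summed to 2043, 1573 and 3133 CPM in hippocampus (5007 CPM at 8 weeks). Most of this sum was Ptgds (prostaglandin D synthase), at 1575, 1159 and 2140 CPM. Over both tissues Ptgds had a difference of 0.67 and did not pass (edgeR adjusted p = 0.0743). The part of meninges and choroid plexus in the sample was not tested.

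Other genes that rose in hippocampus included the following. Camk2d (a calcium and calmodulin-dependent kinase) was at 29.7, 50.9 and 136 CPM, Otof (otoferlin) at 4.73, 8.74 and 29.3 CPM, Cdh4 (a cadherin) at 24.0, 20.0 and 69.0 CPM and Hpcal1 (a calcium sensor) at 41.2, 38.4 and 131 CPM at 12, 16 and 20 weeks. Gap43 (of growing axons) rose by 0.87 and Calb1 (calbindin, of granule cells and CA1 neurons) by 0.74. Of 22 tested hippocampal neuron markers, only Calb1 passed the test in hippocampus, as higher (0.291% of all genes were higher there). In this list 5 genes lay above and 11 below both earlier hippocampus libraries, as did 4723 and 4837 of all 14097 genes. The list summed to 1544, 1236 and 1131 CPM. Tshz2, a zinc finger factor of cortical neurons, fell in hippocampus by 1.72, and in cortex its difference was 0.59.

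Immediate early genes, which neuronal activity switches on within minutes, gave calls in hippocampus but not over both tissues. Of 34 tested, none passed over both tissues (0.184% of all genes did). In hippocampus 2 passed as lower (0.291% of all genes did): Nr4a1, at 45.4, 55.2 and 17.2 CPM, and Dusp1, at 21.0, 25.6 and 9.56 CPM. There 22 of the 34 lay below both earlier libraries and 4 above, as did 4837 and 4723 of all 14097 genes. In cortex 6 lay below and 20 above, as did 5018 and 5352 of all genes. The list's median difference was -0.49 in hippocampus and 0.12 in cortex (all genes: -0.01 and 0.01). For Nr4a1 the hippocampal difference of -1.55 and the cortical difference of 0.64 were themselves different (-2.19, SE 0.26, edgeR adjusted p = 0.0119). Arc, at 59.3, 112 and 28.8 CPM, and Fos, at 9.45, 20.1 and 4.58 CPM, were lowest at 20 weeks in hippocampus but did not pass (adjusted p = 0.0939 and 0.241), and in cortex Arc was at 94.1, 69.5 and 111 CPM.

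Lists of microglia, astrocytes, inflammation and the response to pollutants gave no call over both tissues, where 0.184% of all genes were called. At so low a share, having no call does not set lists of these sizes apart from all genes. None of the 22 genes of homeostatic microglia, 16 of activated microglia, 18 of homeostatic astrocytes, 17 of reactive astrocytes, 22 of the interferon response, 17 of cytokines and NF-kB, 24 of the NRF2 response or 10 of the aryl hydrocarbon receptor pathway passed, and their medians lay between -0.08 and 0.12. Above both earlier times in both tissues lay 6 activated and 6 homeostatic microglia genes (37.5% and 27.3%, against 14.9% of all genes). Below both lay 3 and 2 genes of the same lists (18.8% and 9.09%, against 14.5%). For homeostatic astrocytes 27.8% lay below and 11.1% above, and for the NRF2 response 29.2% below and 8.33% above. Il1b and Tnf were below the filter on low counts. Gfap (of reactive astrocytes) was at 136, 142 and 128 CPM in hippocampus and 43.2, 34.8 and 48.5 CPM in cortex at 12, 16 and 20 weeks. Cd68 (a lysosomal protein of phagocytes) was at 3.81, 3.29 and 6.55 CPM and at 4.92, 4.27 and 7.15 CPM, above both earlier times in each tissue but not past the test (0.76, SE 0.26, adjusted p = 0.348). Of 23 glucocorticoid receptor targets none passed over both tissues, 8 lay below both earlier times in both tissues (34.8%, against 14.5% of all genes), and the median difference was -0.30; Klf9, Mt1 and Sgk1 had differences of -0.34, -0.30 and -1.18 (adjusted p = 0.212, 0.254 and 0.29). Of 69 genes of oxidative phosphorylation, 23 lay below both earlier times in both tissues (33.3%, against 14.5% of all genes) with a median of -0.07, and none passed. Of 25 key genes of exposure, injury and plasticity tested, Mbp was the only one that passed (0.184% of all genes did).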

How the data were processed

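Pooled RNA of hippocampus and cortex was sequenced with a 3' mRNA kit primed with oligo-dT (single-end reads of 75 bp), per the labels' protocols, and the authors deposited raw counts per gene symbol, 1 library per tissue and time. The submitters' processing notes name Bowtie2, bedtools and edgeR, without versions, and mm10; the strand setting is not given in the sources used here. The 6 libraries held 7314293 to 8649319 counts. In the 8-week libraries, 27 symbols turned into dates were restored. The counts were tested with edgeR 4.0.16 in R 4.3.3 (TMM, filterByExpr, quasi-likelihood F test, Benjamini-Hochberg over 14097 genes, threshold 0.05). The model over both tissues had terms for tissue and 20 weeks and left 3 residual degrees of freedom. A second model with a mean per tissue and period, leaving 2, gave each tissue's difference and the difference between tissues, each tissue resting on 1 against 2 libraries. The scripts were tested on simulated data. Log2 CPM used a prior count of 2. Alternatives used DESeq2 1.42.0 and limma 3.58.1, other scalings and filters, and left-out libraries. Exact intervals cover counting error only.

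Genes named were, over both tissues, the 10 largest changes per direction among calls with a mean of at least 5 CPM and the 10 largest gaps between 20 weeks and the nearer earlier library (mean of at least 50 counts); in each tissue the 8 largest gaps per direction; the 5 smallest p of the difference between tissues; the 3 smallest p of each of 44 lists; and key genes. Other genes named were chosen after their values were seen. The libraries compared and the gene lists were chosen with earlier results of these data known. Positions come from GENCODE M21 on GRCm38. The labels number no replicates. Deviations from each tissue's mean correlated across genes between libraries of one time with r = 0.07, 0.25 and 0.19 at 12, 16 and 20 weeks. Between different times r was -0.19 to 0.02. Such deviations cancel within each gene and tissue and hold the 20-week difference, so this contrast is partly fixed and cannot show pairing. Exposure time as a block was an alternative, in which limma estimated a consensus correlation of -0.22 between libraries of one time. Results for some single genes are not reported here.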

Additional observations from a re-analysis of the deposited data

Results flagged for a closer look

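For 17 genes the 20-week difference in hippocampus differed from that in cortex by a test of the difference itself (edgeR quasi-likelihood test, adjusted p from 0.000998 to 0.048); values are the hippocampal minus the cortical log2 difference. Of the striatal markers, Syndig1l differed by 4.17, Penk by 3.62, Drd1 by 2.86, Rxrg by 4.69, Tac1 by 2.97, Pde10a by 1.92 and Rgs9 by 2.37. Pde1b differed by 1.52, Adcy5 by 1.51, Pcp4 by 1.34 and Nexn by 2.08, genes that fell in cortex. Dach1, a transcription factor gene, differed by 2.69. The collagen genes Col1a1 and Col1a2 differed by 3.61 and 2.83, and Gpx3 by 2.58. In the opposite direction, Nr4a1 differed by -2.19 and Tshz2 by -2.31. Each tissue's difference rests on 1 library of 20 weeks.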

How the results depend on the processing

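The 26 calls over both tissues became 108 with DESeq2, 115 without the filter on low counts, 14 with a mean of at least 50 counts, 3 with a fold above 1.5, 7 with 10 libraries estimating the spread, 43 with 8 weeks added to the earlier times, 134 with exposure time as a block in limma-voom (consensus correlation -0.22), 282 without 12 weeks and 3 without 16 weeks. Leaving out 1 library gave 1 (cortex 16 weeks) to 135 (hippocampus 12 weeks). With library totals alone 20 genes were higher and 14 lower; without hippocampus 20 weeks 0 were higher and 20 lower. The genes called kept their direction in every alternative in which they were tested. With a fold above 1.5, hippocampus had 11 calls, cortex 11 and the difference between tissues 10. Leaving out 1 earlier library gave 73 to 691 calls in hippocampus, 11 to 396 in cortex and 9 to 307 for the difference; without a hippocampus library that tissue has 1 library against 1 and the spread comes from cortex alone. Without a 20-week library, the lone remaining one is assumed to vary like the others. Myelin genes called over both tissues numbered 0 (fold above 1.5, without hippocampus 20 weeks, without cortex 16 weeks, or without 16 weeks) to 18 (without 12 weeks), with a median log2 difference of -0.46 without hippocampus 20 weeks to -1.24 without cortex 20 weeks. At these depths 3 counts equal 0.347 to 0.41 CPM. The ratio is given with its counting interval for Trh and Adora2a in hippocampus and Trhr in cortex.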

Other observations

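Alb, the gene of serum albumin that liver makes, was at 325 CPM in the hippocampus library of 16 weeks, against 13.5 CPM at 12 weeks and 10.1 CPM at 20 weeks. In cortex Alb was at 5.68, 27.8 and 1.10 CPM at 12, 16 and 20 weeks, again highest at 16 weeks. The control hippocampus library held 38.8 CPM and the cortex library of 8 weeks 37.2 CPM. Its difference of 20 weeks from 12 and 16 weeks over both tissues was -4.04 on the log2 scale (SE 1.28, edgeR adjusted p = 0.314). Apoa1, which encodes an apolipoprotein of liver and intestine, was at 5.12, 88.7 and 7.73 CPM in hippocampus at 12, 16 and 20 weeks. These genes were chosen after their values were seen.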
